A study of Mus musculus with 2 samples.

Results

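The 38 genes described here are the immediate early and stress-induced genes, chosen by name from their known biology, with earlier results of these data known. They are 38 of the 32285 genes listed in the count matrices, and all 38 had UMIs (unique molecular identifiers, each standing for 1 captured RNA molecule) in both libraries. They were followed through 15412 cells of 5 cell groups, out of 19719 barcodes deposited, from the lungs of untreated wild type C57BL/6 mice. The mice were 3-month-old males per the methods. The lungs were dissociated into single cells, and cells that emitted light under ultraviolet excitation, the signature of stored retinoid, were sorted and made into 2 droplet libraries on separate occasions. The number of mice behind each library is not given in the sources used here. Every cell had therefore passed through dissociation and a sort, and no unsorted or undissociated control was part of the series, so a level present in the lung and a level acquired during cell preparation cannot be told apart.

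Immediate early genes are switched on within minutes of a stimulus by factors that already sit in the cell, without new protein synthesis. The serum response factor with its Ets partners, CREB and NF-kB are the best known of these factors, and growth factors, stretch, heat and enzymatic tissue dissociation all act on them. Most of the genes encode short-lived transcription factors (the AP-1, Egr, Nr4a and Klf families), and a later wave encodes the phosphatases, RNA decay factors and inhibitors that end the response.

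The promoters of a few members show what such genes carry in front of their start. RefSeq promoter windows (assembly GRCm38.p6, 250 bases before to 50 after a start) were at hand for 33 of the 38 genes, in 43 windows. The short cyclic AMP response element core TGACG was found on either strand in 19 of the 33 genes and in 58.1% of the 43 windows, against 20.8% of all 32851 windows of the same length. The full element TGACGTCA, which holds the core on each strand and so overlaps it, was found in 4 genes (Btg2, Dusp1, Maff and Ppp1r15a) and in 9.3% of the 43 windows, against 1.79% of all windows. The CArG letters of the serum response element were found in Egr2 and Zfp36, which have several windows, and in 11.6% of windows against 1.63% of all. The letters of an NF-kB site were found in Nfkbia alone, in 2.33% of windows against 0.411%. The AP-1 letters TGANTCA were found in 6.98% of member windows and 7.81% of all windows. GC boxes (GGGCGG) stood in 65.1% against 35.7%, and TATAAA in 25.6% against 13.6%. A match is a description of letters and not a measured binding site.

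The 250 bases before the start are given for Fos and Junb, which are among the 3 most abundant members, for Dusp1 and Btg2, which hold the full element, for Nr4a1, which has 4 copies of the core, and for Zfp36, which has the serum response element. Capitals mark the core or the full cyclic AMP response element, the TATAAA of Fos and the CArG letters of Zfp36, and a core on the opposite strand reads CGTCA.
Fos, chr12:85473640-85473889, plus strand: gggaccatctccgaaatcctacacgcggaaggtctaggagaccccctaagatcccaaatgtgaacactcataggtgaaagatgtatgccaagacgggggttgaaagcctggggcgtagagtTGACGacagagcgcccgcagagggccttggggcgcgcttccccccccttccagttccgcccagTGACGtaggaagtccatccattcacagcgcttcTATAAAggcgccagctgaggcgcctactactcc
Junb, chr8:84978749-84978998, minus strand: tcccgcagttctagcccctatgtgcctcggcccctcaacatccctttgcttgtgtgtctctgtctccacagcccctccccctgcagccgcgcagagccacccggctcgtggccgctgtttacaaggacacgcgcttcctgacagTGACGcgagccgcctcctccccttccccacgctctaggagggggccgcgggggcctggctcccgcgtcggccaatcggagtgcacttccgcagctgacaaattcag
Dusp1, chr17:26508473-26508722, minus strand: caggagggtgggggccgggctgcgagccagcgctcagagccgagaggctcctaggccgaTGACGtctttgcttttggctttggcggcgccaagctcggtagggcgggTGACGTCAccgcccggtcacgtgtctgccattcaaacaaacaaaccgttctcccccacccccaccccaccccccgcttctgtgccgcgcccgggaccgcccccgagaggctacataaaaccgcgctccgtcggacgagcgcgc
Btg2, chr1:134079156-134079405, minus strand: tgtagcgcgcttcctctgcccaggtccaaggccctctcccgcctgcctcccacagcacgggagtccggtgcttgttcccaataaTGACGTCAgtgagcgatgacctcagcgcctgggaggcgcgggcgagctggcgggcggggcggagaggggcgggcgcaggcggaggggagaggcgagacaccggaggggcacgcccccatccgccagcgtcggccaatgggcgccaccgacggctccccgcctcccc
Nr4a1, chr15:101266596-101266845, plus strand: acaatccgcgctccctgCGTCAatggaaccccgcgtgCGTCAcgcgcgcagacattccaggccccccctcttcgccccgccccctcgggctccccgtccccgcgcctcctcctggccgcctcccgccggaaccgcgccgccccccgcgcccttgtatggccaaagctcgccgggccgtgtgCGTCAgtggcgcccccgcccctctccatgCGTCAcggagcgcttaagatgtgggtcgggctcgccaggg
Zfp36, chr7:28379229-28379478, minus strand: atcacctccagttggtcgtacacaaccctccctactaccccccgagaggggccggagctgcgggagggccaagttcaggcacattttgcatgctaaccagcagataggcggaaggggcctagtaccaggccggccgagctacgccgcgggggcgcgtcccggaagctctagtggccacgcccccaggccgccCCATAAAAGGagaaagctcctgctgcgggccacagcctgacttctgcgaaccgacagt

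The 5 groups were set from marker UMIs and checked on markers that the rule did not use. Stromal cells carried Col1a2, Mfap4 or Pdgfra, and were called alveolar fibroblasts with no Dcn UMI (5805 cells in library 1 and 5545 in library 2) or adventitial fibroblasts with at least 3 (1017 and 998 cells). Endothelial cells numbered 56 and 360, epithelial cells 930 and 101, and immune cells 266 and 334. Levels are in CPM (UMIs per 1000000 UMIs of a group's sum in 1 library). Endothelial check markers summed to 12565.5 and 9948 CPM in endothelial cells and to at most 54.0 in any other group. Epithelial ones summed to 256949 and 209814 in epithelial cells and to at most 522.8 elsewhere. Immune ones summed to 5881 and 3586 in immune cells and to at most 97.45 elsewhere. Stromal ones summed to 4969 to 7158 in the fibroblast groups and to at most 326.3 elsewhere. The 2 fibroblast groups were less distinct than the rest. The adventitial check markers (Pi16, Dpt, Serpinf1, Clec3b and Col14a1) summed to 3328 and 1663 CPM in the adventitial group and to 1842 and 793.7 in the alveolar group. RNA of other cells was present at a low level, with stromal check markers at 326.3 and 208.9 CPM in endothelial cells against 5024 and 4969 in alveolar fibroblasts. Library 2 was deeper (median 7577.5 UMIs per cell against 4480) and its median mitochondrial share was higher in every group. The endothelial sum of library 1 held 119534 UMIs, where 3 UMIs are 25.1 CPM, and it is the least precise of the 10 sums. The libraries shared 23 barcodes, 11 of them in the 5 groups of both.

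The 38 genes together took a large part of the RNA in fibroblasts and endothelial cells and a smaller part in epithelial and immune cells. In alveolar fibroblasts they made up 3.98% of all UMIs in library 1 and 2.81% in library 2 (3.40% ± 0.825, SD, n = 2). Adventitial fibroblasts had 3.77% and 2.86% (3.32% ± 0.645, SD, n = 2) and endothelial cells 3.87% and 2.54% (3.21% ± 0.935, SD, n = 2), so the values of these 3 groups overlapped. Immune cells had 1.58% and 1.81% (1.69% ± 0.167, SD, n = 2), and epithelial cells, with 1.18% and 0.889% (1.03% ± 0.206, SD, n = 2), were lowest in both libraries. The values of the fibroblast and endothelial groups lay above those of the other 2 groups without overlap. Surfactant transcripts and other epithelial check markers took 256949 and 209814 CPM of the epithelial sums, and a share of the total is lowered by any transcript of that size.

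The same few genes did not lead everywhere. Fos, Jun, Junb and Jund, subunits of the AP-1 transcription factor, supplied 49.1% and 42.7% of the members' UMIs in alveolar fibroblasts. In endothelial cells of library 2 the flow-induced factor Klf2 alone supplied 15.8%, and in library 1 6.06%, while in alveolar fibroblasts it supplied 0.989% and 1.07%. In immune cells the antiproliferative gene Btg1 supplied 9.31% and 7.10%, against 0.657% and 0.918% in alveolar fibroblasts. By mean level over both libraries, epithelial cells were the lowest group for 20 members and the highest for 0. A member was above every other sum in both libraries of 1 group for 14 genes, which were Btg2 and Ccn2 in alveolar fibroblasts, Nr4a2 and Nr4a3 in adventitial fibroblasts, Atf4, Ier3, Klf2, Klf4, Dusp6, Socs3 and Csrnp1 in endothelial cells, and Fosl2, Btg1 and Tnfaip3 in immune cells.

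**Figure D1:**
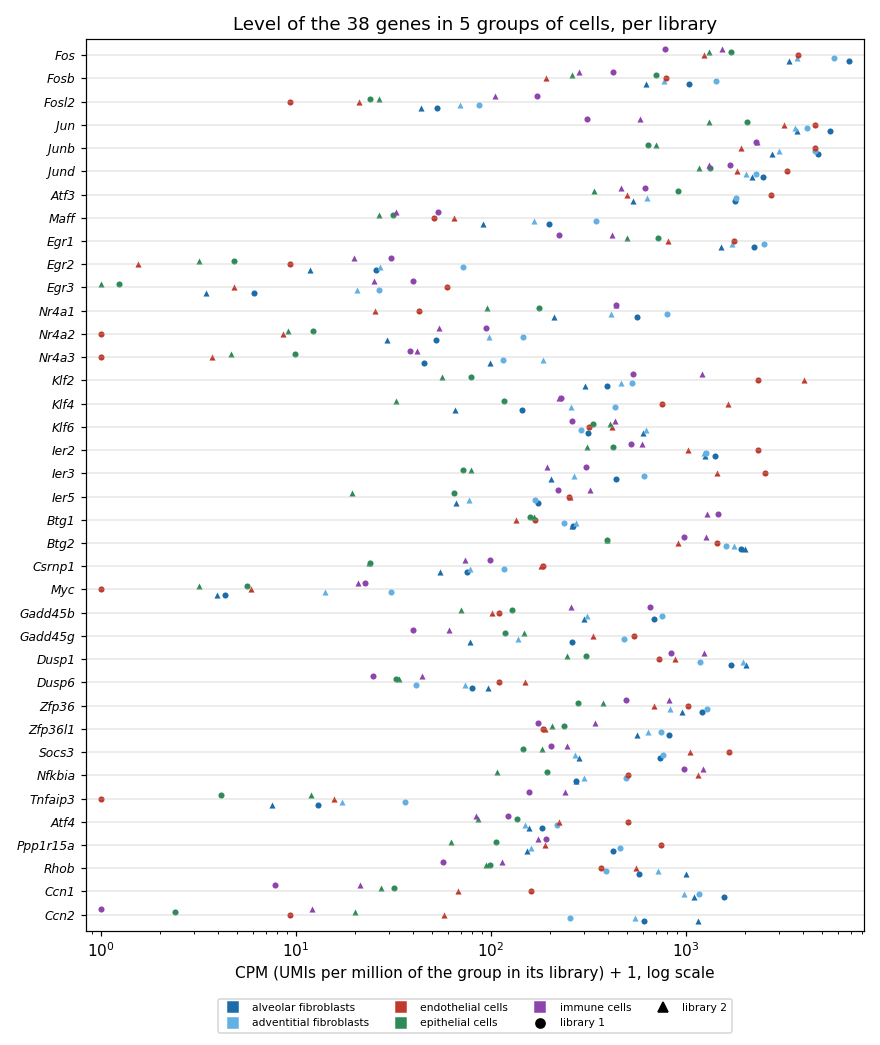
Level of each of the 38 genes (rows, grouped by family) as CPM plus 1 on a log axis, for the 5 cell groups (colours) in library 1 (circles) and library 2 (triangles). Fos, Jun and Junb stand at the right in the fibroblast groups, while Klf2 and Klf4 are highest in endothelial cells and Tnfaip3 and Btg1 in immune cells.

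The UMIs of each group were summed within a library and compared with those of alveolar fibroblasts. The quasi-likelihood test of edgeR was run on 13326 genes, with a term for the library, and p-values were adjusted by Benjamini-Hochberg over the 13326. All 38 members passed the filter on low counts. The 4 comparisons share the alveolar sums and are not independent of each other. Their spread is how far the differences between groups disagree between the 2 libraries. Levels below are in CPM and are not divided by transcript length, since the libraries count 3' ends.

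The members called between adventitial and alveolar fibroblasts ranged from the scarce Myc and Egr3 to Klf4, at 434.2 and 257.3 CPM in adventitial fibroblasts, while Fos, Jun, Junb, Jund and Egr1 were not called. The test called 9 members higher in adventitial fibroblasts and 0 lower (at an unadjusted p under 0.05, 12 and 2), which is 23.7% of the members against 8.71% of all genes tested in either direction, 5.76% higher and 2.95% lower. The members' median log2 fold change was 0.13, against -0.03 over all genes. DESeq2 called 4 higher and 0 lower, and the edgeR fit without the library block called 1 (Myc).

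The proliferation factor Myc stood at 29.9 and 13.1 CPM in adventitial fibroblasts and at 3.33 and 2.94 in alveolar fibroblasts. The 2 groups did not overlap (log2 fold change 2.69 ± 0.29 SE, adjusted p = 6.3e-06). Egr3, a zinc finger factor of the Egr family, had 25.6 and 19.5 against 5.12 and 2.48 CPM (log2 fold change 2.69 ± 0.31 SE, adjusted p = 1.27e-05). Both genes are scarce, and fewer than 1% of alveolar cells thinned to 2000 UMIs held a UMI of either. The orphan nuclear receptor Nr4a2 had 144.3 and 96.4 against 51.4 and 28.5 CPM (1.65 ± 0.20 SE, adjusted p = 1.67e-05), and its relative Nr4a3 114.7 and 185.0 against 44.6 and 97.7 (1.14 ± 0.26 SE, adjusted p = 0.00771). All 9 genes were higher in adventitial fibroblasts within each library. Across libraries Maff overlapped, with 343.8 and 165.2 against 198.5 and 90.3 CPM, and Egr2 nearly did, with 70.6 and 26.0 against 24.8 and 10.8. Egr2 had a log2 fold change of 1.43, Klf4, a factor of epithelial and endothelial quiescence, of 1.80, and Tnfaip3, the ubiquitin-editing inhibitor of NF-kB, of 1.48. Fosl2 and Maff, a Fos-related and a small Maf factor, had 0.73 and 0.86.

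The abundant AP-1 and Egr members did not pass the test between the fibroblast groups. Fos had 5762 and 3696 CPM in adventitial fibroblasts and 6832 and 3383 in alveolar fibroblasts (log2 fold change -0.04 ± 0.34 SE, adjusted p = 0.977), and the values interleaved. Jun, Junb, Jund and Egr1 had log2 fold changes from -0.19 to 0.21. Ccn2, the matricellular connective tissue growth factor, had 254.6 and 550.2 against 610.0 and 1147 CPM and just missed the threshold (-1.14 ± 0.35 SE, adjusted p = 0.0507).

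Endothelial cells had Klf2, Klf4 and Ier3 well above alveolar fibroblasts and had little of the matricellular and Nr4a genes. By level, Klf2 led the members in library 2 only, and Jun led in library 1. The test called 9 members higher and 17 lower than in alveolar fibroblasts, which is 68.4% of the members against 33.0% of all genes in either direction, 14.8% higher and 18.2% lower. The members' median log2 fold change was -0.56 and that of all genes -0.18. Without the endothelial sum of library 2, which leaves the sum of 56 cells to stand for the group, 15 members were called, of which 14 had been called with it, and among those lost were Fos, Fosb, Egr1, Nfkbia and Socs3.

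Klf2 had 2342 and 4017 CPM in endothelial cells and 393.8 and 301.9 in alveolar fibroblasts. Both endothelial values were above all others in the series (log2 fold change 2.92 ± 0.36 SE, adjusted p = 3.15e-06). Klf4 had 752.9 and 1647 against 143.6 and 64.3 (3.58 ± 0.49 SE, adjusted p = 1.16e-05), and Ier3, a stress-induced survival gene, 2560 and 1437 against 439.2 and 203.4 (2.40 ± 0.27 SE, adjusted p = 9.47e-07). In these 3 genes the endothelial values lay above the alveolar ones in both libraries. Nfkbia, which encodes the NF-kB inhibitor IkBa, had 501.9 and 1159 against 272.9 and 271.3 CPM (log2 fold change 1.47), and Socs3, the inhibitor of cytokine receptor signalling, 1656 and 1053 against 737.5 and 283.3 (1.21). Gadd45g had 543.8 and 332.2 against 260.1 and 77.0 CPM (1.27), Ier5 251.0 and 253.2 against 173.7 and 64.9 (1.14) and Csrnp1 184.0 and 180.7 against 74.7 and 54.0 (1.38). Atf4, the effector of the integrated stress response, had 501.9 and 222.9 against 181.1 and 155.4 CPM (0.67). None of the 6 overlapped with alveolar fibroblasts, but with DESeq2 the calls of Socs3, Gadd45g and Ier5 were lost. Without the library block those of Atf4 and Nfkbia were lost as well, and of the 6 Csrnp1 alone kept its call. Klf6, the remaining Klf member, had 317.9 and 415.0 CPM in endothelial cells and 314.0 and 603.0 in alveolar fibroblasts, and was not called (adjusted p = 0.0829).

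All 3 Nr4a receptors were lower in endothelial cells. Nr4a1 had 41.8 and 24.4 against 563.2 and 208.9 CPM (-3.63 ± 0.35 SE, adjusted p = 1.47e-07). Nr4a2 and Nr4a3 had 0 UMIs in the 56 cells of library 1, which allows up to 25.1 CPM, and 7.57 and 2.71 CPM in library 2. Egr2 was called lower on 1 UMI in each library, and no fold is given for it. Ccn1, the matricellular protein CYR61, had 159.0 and 67.1 against 1565 and 1107 CPM (-4.08 ± 0.33 SE, adjusted p = 1.63e-08), which is 10.2% and 6.06% of the alveolar level. The stromal check markers stood at 6.50% and 4.20% of their alveolar level in the same sums. Bgn alone made up 225.9 of their 326.3 CPM in library 1 and 134.2 of 208.9 in library 2. The part of fibroblast RNA in the endothelial Ccn1 value was not tested. Ccn2 stood at 1.37% and 4.91% of the alveolar level. Fos had 3740 and 1234 CPM against 6832 and 3383, lower within each library (-1.42 ± 0.35 SE, adjusted p = 0.00374). Dusp1, a phosphatase that inactivates MAP kinases, was lower by 1.48 on the log2 scale, Zfp36l1, an RNA decay factor, by 2.10, and Gadd45b by 2.08. Fosb, Fosl2, Maff, Egr1, Btg1, Btg2 and Rhob were lower by 0.91 to 1.36.

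Epithelial cells had no member above alveolar fibroblasts by the test with all sums. It called 0 higher (0 also at an unadjusted p under 0.05 and by DESeq2) and 25 lower, which is 65.8% of the members against 51.1% of all genes in either direction, 24.4% higher and 26.8% lower. With 1 sum left out, 1 member was called higher without alveolar library 1 (Gadd45g) and 1 without epithelial library 2 (Klf6). The members' median log2 fold change was -1.08 and that of all genes -0.11. Scaling to library totals alone moved the median of all genes by -0.56 in this comparison, by -0.27 in immune and by 0.17 in endothelial cells, and RLE size factors moved it by 0.13 in immune cells, so fold changes are to be read relative to that median.

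Ccn2 had 1.39 and 19.0 CPM in epithelial cells (12 and 26 UMIs) and Ccn1 31.0 and 26.4, far under the alveolar 610.0 and 1147 for Ccn2 and 1565 and 1107 for Ccn1. Their log2 fold changes were -6.68 ± 0.49 SE (adjusted p = 2.17e-09) and -4.98 ± 0.32 SE (adjusted p = 3.47e-10). Rhob, a small GTPase of the actin cytoskeleton, had 97.9 and 93.0 against 575.6 and 997.7 CPM (-2.36 ± 0.25 SE, adjusted p = 3.27e-07), and the groups did not overlap. Dusp1 had 306.2 and 244.6 against 1699 and 2043 CPM (-2.16 ± 0.25 SE, adjusted p = 6.72e-07), and Junb 641.3 and 699.4 against 4767 and 2751 (-1.87 ± 0.25 SE, adjusted p = 4.94e-06). Fos, Jun and Egr1 were lower by 1.16, 0.89 and 1.06 on the log2 scale. Egr3 was called lower on 2 UMIs, both in library 1, and no fold is given for it.

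The other 16 members called, among them Klf2, Ier2, Ier3, Btg2, Gadd45b, Socs3 and the 3 Nr4a receptors, were lower by 0.80 to 2.40. Part of the AP-1 and stress set was not called in epithelial cells. Jund had 1337 and 1171 CPM against 2475 and 2180 in alveolar fibroblasts (log2 fold change -0.35 ± 0.19 SE, adjusted p = 0.148). Atf3, a stress-induced repressor of the ATF family, had 913.0 and 336.2 against 1795 and 533.9 (-0.28 ± 0.28 SE, adjusted p = 0.444). Klf6 had 332.6 and 405.0 against 314.0 and 603.0 (0.32 ± 0.22 SE, adjusted p = 0.238). A p above the threshold does not show equal levels, and with library totals alone Jund, Atf3, Fosb and 5 other members were called lower as well, 33 in all.

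Immune cells had the NF-kB inhibitors high and the Jun, Egr1 and matricellular genes low. The test called 13 members higher and 14 lower, which is 71.1% of the members against 52.5% of all genes in either direction, 24.2% higher and 28.3% lower. The members' median log2 fold change was -0.41 and that of all genes -0.18. With library totals alone the split was 10 higher and 21 lower.

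Tnfaip3 had 156.2 and 239.4 CPM in immune cells and 11.99 and 6.58 in alveolar fibroblasts (log2 fold change 4.78 ± 0.41 SE, adjusted p = 1.59e-08). Nfkbia had 974.9 and 1220 against 272.9 and 271.3 (2.29 ± 0.37 SE, adjusted p = 5.01e-05). Btg1 had 1466 and 1285 against 261.7 and 258.5 (2.68 ± 0.21 SE, adjusted p = 4.13e-09), and no sum of another group was above 271.2 CPM. Myc (3.02), Egr3 (3.38), Fosl2 (1.78), Ier5 (1.71), Klf2 (1.56), Klf4 (1.50) and Nr4a2 (1.16) were also higher on the log2 scale, and Egr2, Csrnp1 and Nr4a1 were higher by less than 1. Nr4a1 rests on library 2, since in library 1 its 435.6 CPM lay under the alveolar 563.2 and in library 2 its 439.0 lay over 208.9.

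AP-1 subunits separated in immune cells. Jun had 311.3 and 580.2 CPM against 5467 and 3716 in alveolar fibroblasts (-3.04 ± 0.30 SE, adjusted p = 1.11e-07), while its paralogue Junb had 2297 and 2315 against 4767 and 2751 (-0.36 ± 0.24 SE, adjusted p = 0.224). Fos was lower by 1.70 and Fosb by 0.94. Egr1 had 222.3 and 417.0 against 2231 and 1520 CPM (-2.18 ± 0.31 SE, adjusted p = 9.43e-06). Ccn2 had 0 UMIs in library 1 and 20 in library 2, and Ccn1 6.84 and 20.4 CPM. These are 0.437% and 1.84% of the alveolar Ccn1 level, beside stromal check markers at 4.86% and 2.37%. Fn1 alone made up 187 of the 244 CPM of those markers in immune cells of library 1 and 77.8 of 118 in library 2. Their sum is therefore not an even gauge of fibroblast RNA there. Rhob, Maff, Gadd45g, Zfp36l1, Dusp6, a phosphatase specific for ERK, and Ier2 were lower by 0.95 to 2.95, and Dusp1 and Btg2 by 0.59 and 0.53 (adjusted p = 0.0445 and 0.0374). The calls of Dusp1 and Btg2 were lost with RLE size factors, with DESeq2, without the library block, and in cells with at least 5 marker UMIs or with 0 UMIs of other classes' markers. That of Gadd45g (adjusted p = 0.0365) was lost in the same settings, except in cells with 0 UMIs of other classes' markers.

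**Figure D2:**
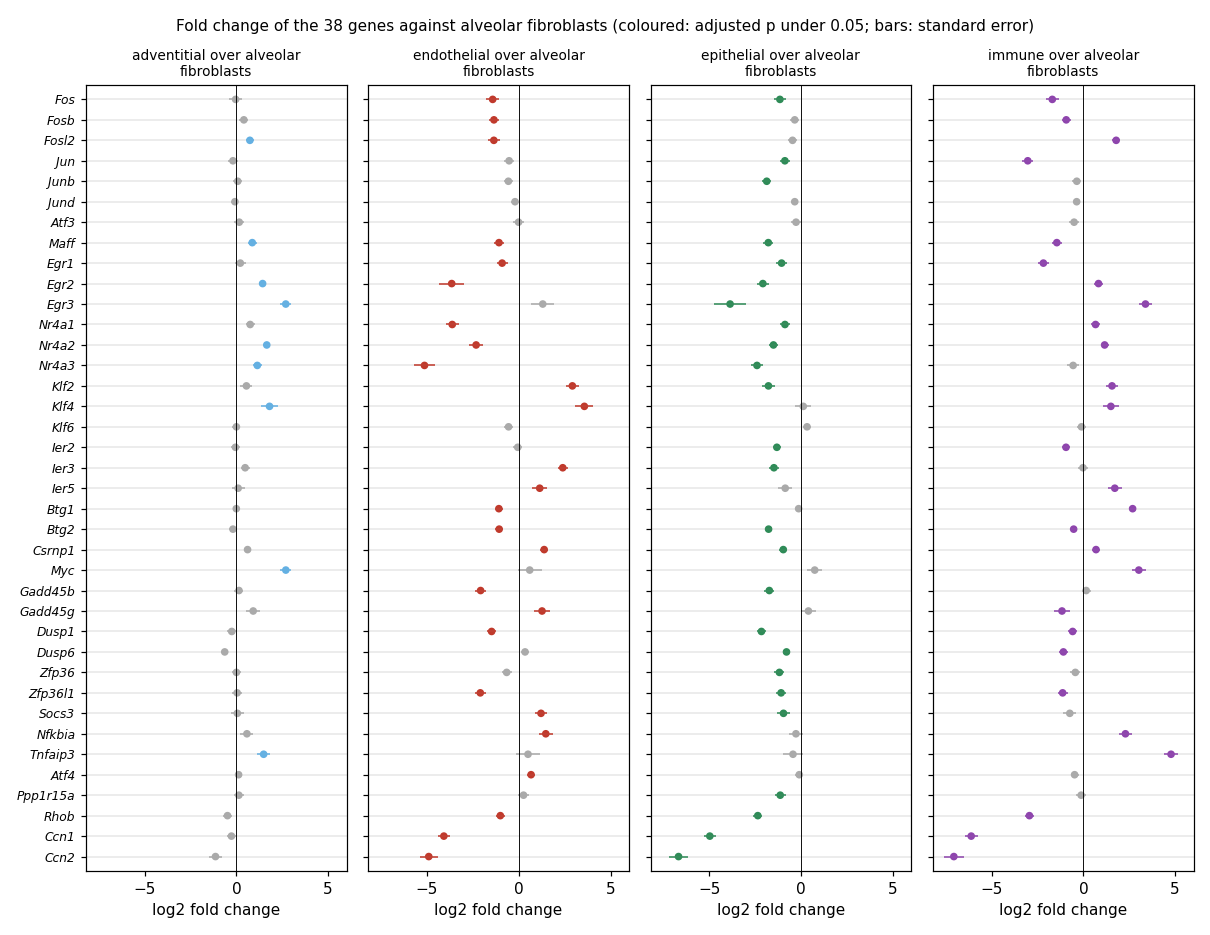
Log2 fold change of each member against alveolar fibroblasts in the 4 comparisons (panels, same horizontal scale), with its standard error as a bar, coloured where the adjusted p was under 0.05. The 9 coloured points of the adventitial panel lie right of 0, the 25 of the epithelial panel lie left of it, and those of the endothelial and immune panels lie on both sides.

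Read by family, the Nr4a receptors gave 2 of 3 members higher in adventitial fibroblasts and in immune cells, and 3 of 3 lower in endothelial and in epithelial cells. Families of 2 to 9 genes are small, and their counts stand beside 8.71% of all genes called in either direction in adventitial, 33.0% in endothelial, 51.1% in epithelial and 52.5% in immune cells. The 3 secreted and cytoskeletal genes (Ccn1, Ccn2 and Rhob) were lower in all 3 of the groups that are not fibroblasts, and none was called between the fibroblasts. Of the 8 AP-1 and related members (Fos, Fosb, Fosl2, Jun, Junb, Jund, Atf3 and Maff), 4 were lower in each of the endothelial, epithelial and immune groups, Fosl2 was higher in immune cells, and Fosl2 and Maff were higher in adventitial fibroblasts. Of all genes, 18.2% were called lower in endothelial, 26.8% in epithelial and 28.3% in immune cells. Of the 2 integrated stress response genes, Atf4 was higher in endothelial cells and Ppp1r15a, which encodes the phosphatase subunit GADD34, was lower in epithelial cells. Both calls were lost without the library block. Of the 7 feedback genes (Dusp1, Dusp6, Zfp36, Zfp36l1, Socs3, Nfkbia and Tnfaip3), 1 was higher in adventitial fibroblasts (Tnfaip3), 2 were higher and 2 lower in endothelial cells, 5 were lower in epithelial cells, and 2 were higher and 3 lower in immune cells. Zfp36, tristetraprolin, which speeds the decay of cytokine mRNA, was called in epithelial cells alone, lower by 1.18 on the log2 scale.

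Genes of neighbouring pathways, beside the 38, did not move as 1 block. Of 12 heat shock genes tested, 6 were called in endothelial cells, 5 in epithelial cells and 7 in immune cells, each of them lower than in alveolar fibroblasts. Of all genes, 18.2% were called lower in endothelial, 26.8% in epithelial and 28.3% in immune cells. Called higher were 14.8%, 24.4% and 24.2% in the same order, and in either direction 33.0%, 51.1% and 52.5%. In adventitial fibroblasts 5.76% of all genes were higher and 2.95% lower. The counts of each list here stand beside these shares, and the lists are short. The small heat shock protein gene Hspb1 had 2278 and 2056 CPM in alveolar fibroblasts and 13.7 and 23.7 in immune cells. In adventitial fibroblasts 1 of the 12 was higher, the inducible chaperone Hspa1b (log2 fold change 1.48), and Hspa1b and Hspa1a are near-identical copies that counting may split. Of 18 NF-kB feedback and target genes, 10 were higher and 1 lower in immune cells, 3 were higher and 5 lower in endothelial cells, 4 were higher and 5 lower in epithelial cells, and 3 were higher in adventitial fibroblasts, the cytokine and chemokine genes Il6 (1.46), Cxcl1 (1.22) and Ccl2 (1.04). Of 48 other early response genes, 4 were higher and 3 lower in adventitial fibroblasts, led by Ptgs2, the inducible cyclooxygenase, with 63.7 and 45.7 against 8.24 and 3.17 CPM (log2 fold change 3.40 ± 0.26 SE, adjusted p = 1.18e-07). They were 11 and 16 in endothelial cells, 15 and 15 in epithelial cells and 18 and 18 in immune cells. Of 17 genes of upstream kinases and factors, 7 were higher and 3 lower in endothelial cells, 4 were higher and 3 lower in epithelial cells, and 7 were higher in immune cells. Of 15 other integrated stress response genes, 2 were higher in adventitial fibroblasts, 3 were higher and 8 lower in endothelial cells, 5 were higher and 3 lower in epithelial cells, and 4 were higher and 5 lower in immune cells. Of 9 further YAP and serum response factor targets, 2 were lower and 1 higher in adventitial fibroblasts, 5 lower and 1 higher in endothelial cells, 6 lower and 1 higher in epithelial cells and 7 lower and 2 higher in immune cells. Among them Tagln, an actin-binding protein gene, had 621.6 and 597.9 CPM in alveolar fibroblasts and 2.20 and 1.47 in epithelial cells. Of 7 glucocorticoid response genes, none was called in adventitial fibroblasts, 3 were lower in endothelial cells, 4 lower and 1 higher in epithelial cells, and 3 lower and 1 higher in immune cells.

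Single alveolar fibroblasts differed widely in how much of their RNA came from the 38 genes. With every cell thinned to 2000 UMIs, so that depth was equal, 5070 and 5504 cells remained (735 and 41 were too shallow). The median share was 4.05% in library 1 and 2.70% in library 2, the 10th percentile 0.70% and 0.60%, and the 90th 7.0% and 5.0%. After the counting error was taken off, the coefficient of variation between cells was 0.594 and 0.602. The distribution had a low-share peak and a broad high-share peak in both libraries. In library 1, 15.8% of cells lay under 1%, 9.09% between 2 and 3%, and 14.8% between 4 and 5%, with exact binomial 95% intervals of 14.8 to 16.8, 8.31 to 9.92 and 13.8 to 15.8. In library 2, 21.0% of cells lay under 1%, 16.7% between 1 and 2%, and 20.3% between 3 and 4%. Adventitial fibroblasts varied less in each library (0.459 and 0.489) and immune cells more (0.625 and 0.697). The rule on Dcn counts UMIs, and before thinning adventitial cells were deeper (median 6034.0 and 10655.5 UMIs against 3958.0 and 6545.0). Red cell markers summed to 0.632 and 1.55 CPM in adventitial and to 73.8 and 264.9 in alveolar fibroblasts. The part of this selection in the smaller spread of adventitial fibroblasts was not tested. Endothelial cells had 0.680 on 26 thinned cells in library 1 and 0.477 in library 2, and epithelial cells 0.458 and 0.510. Epithelial cells had a median of 1.20% and 0.90%, and immune cells of 1.25% and 1.5%.

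**Figure D3:**
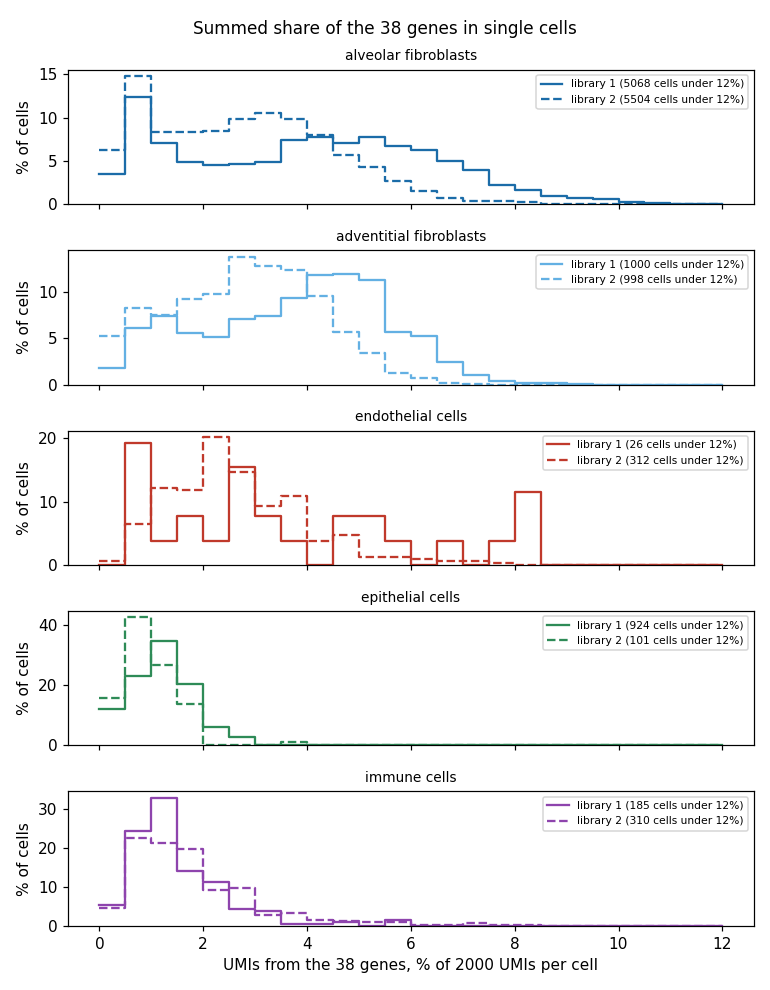
Distribution over single cells of the share of UMIs from the 38 genes, in percent of 2000 UMIs per cell, for the 5 groups (panels) in library 1 (solid) and library 2 (dashed), with cells under 12% drawn. Alveolar fibroblasts show a peak under 1% and a broad one between 3 and 6% in library 1, while epithelial cells lie almost wholly under 3%.

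The members that moved most with the others were the AP-1 core, Egr1 and a few partners. Fos, Jun, Junb and Jund also supplied 49.1% and 42.7% of the members' UMIs in these cells. The part of abundance in the order of the correlations was not tested, and the order does not show which members made the spread. Across alveolar fibroblasts, the Pearson correlation of a member with the sum of the other 37 was highest for Fos (0.854 in library 1 and 0.753 in library 2), Junb (0.838 and 0.782), Jun (0.815 and 0.767) and Egr1 (0.776 and 0.720). Zfp36 (0.671 and 0.638), Btg2 (0.615 and 0.687), Jund (0.656 and 0.572) and Ier2 (0.550 and 0.632) followed. The strongest pair was Fos with Jun (0.804 and 0.688), and 57 of 703 pairs had 0.3 or more in both libraries. Dusp6 (0.029 and 0.065), Gadd45b (0.135 and 0.028) and Nfkbia (0.194 and 0.040) hardly moved with the rest, although Gadd45b had a UMI in 57.5% and 37.3% of the thinned cells. These are correlations across cells of 1 library each, which share their preparation, and weak values in sparse genes carry little. Dusp1 and Ccn1 moved more with the rest in library 2 (0.489 and 0.534) than in library 1 (0.321 and 0.331), and Ppp1r15a and Fosb less (0.250 and 0.417 against 0.447 and 0.623).

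**Figure D4:**
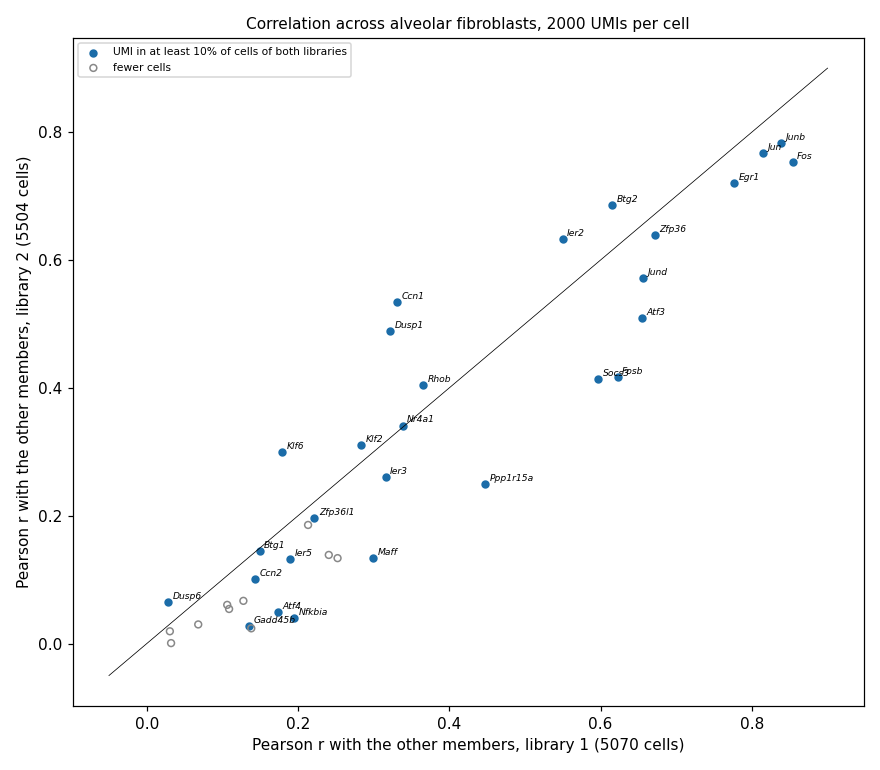
Pearson correlation of each member with the summed UMIs of the other members across alveolar fibroblasts, in library 1 (horizontal) and library 2 (vertical), with equality as the line. Fos, Jun, Junb and Egr1 are at the upper right (above 0.7 in both libraries) and Dusp6 near 0, and open circles are members with a UMI in fewer than 10% of cells of a library.

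Outside the 38, the genes that moved most like their sum in alveolar fibroblasts of both libraries included H3f3b (0.506 and 0.461), Cebpd (0.617 and 0.452), Mt1, Nfkbiz, Sat1, Cebpb, Id3, Ccnl1 and Mcl1 (lower value 0.235), from 2462 genes with a UMI in at least 10% of cells. The median correlation over all 2462 genes was -0.02 and -0.01. H3f3b encodes a replication-independent histone, Cebpd and Cebpb are acute phase factors and Mt1 is a metallothionein. The most negative was the mitochondrial gene mt-Atp6 (-0.215 and -0.225).

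Alveolar fibroblasts were also divided by their share into 3 sets of equal size in each library. The lowest set had a mean share of 1.19% in library 1 and 0.872% in library 2, and the highest 6.63% and 4.64%. Of 41 other early response genes at 10 CPM or more, 31 were higher in the highest than in the lowest set in both libraries and 1 was lower in both. For heat shock genes these counts were 8 and 3 of 12, with a median log2 ratio of 0.56 in library 1 and 0.27 in library 2, and with Dnajb1, an Hsp70 co-chaperone, at 374.5 against 29.9 CPM in library 1 and 187.0 against 34.9 in library 2. For the NF-kB list they were 11 and 1 of 15, for the glucocorticoid list 5 and 0 of 7 and for the YAP list 5 and 2 of 9. Medians near 0 were found for the other integrated stress response genes (2 and 5 of 9, median log2 ratios -0.08 and -0.05) and the upstream genes (7 and 3 of 15, 0.01 and 0.06). For the stromal check markers the counts were 0 and 3 of 5, and for the alveolar ones 1 and 1 of 5. The share of all genes higher in the highest set is not given here, so these counts alone do not show an excess over it. Median depth was lower in the lowest set (3536.5 against 4343.5 UMIs per cell in library 1, 5840.0 against 6740.0 in library 2), and the median mitochondrial share was slightly higher (1.37% against 1.08%, and 2.55% against 2.12%). The lowest set of library 2 also held more smooth muscle and red cell RNA, with Acta2 at 140.5 against 38.7 and Hbb-bs at 599.8 against 38.7 CPM, and in library 1 Sftpc stood at 760.0 against 343.0. The part of these cells or fragments in the low-share peak was not tested.

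Most members were lower in library 2 than in library 1 in both fibroblast groups, which the median of all genes was not. Of the 38, 28 were lower in library 2 in alveolar fibroblasts by a 95% interval of counting error, 7 higher and 3 neither, and the median ratio of library 2 to library 1 was 0.683 against 1.08 over 7607 genes at 10 CPM or more in both libraries, of which 42.2% had a ratio below 1. With 1 library per occasion this compares the libraries only, and such intervals do not cover differences of preparation. The shares of all genes below 1 count every ratio, with no interval. The counts of members by interval are therefore not measured like these shares. In adventitial fibroblasts 29 were lower and 8 higher, with a median ratio of 0.669, where 37.8% of all genes had a ratio below 1. By the median ratio, the shift was not confined to fibroblasts. In endothelial cells 17 were lower and 5 higher, with a median ratio of 0.654 against 0.956 over all genes (53.3% below 1). In epithelial cells 17 were lower and 7 higher, with a median ratio of 0.799 against 1.07 (40.5% below 1). In immune cells 11 were lower and 19 higher, with a median ratio of 1.08, close to that of all genes there, of which 41.5% had a ratio below 1.

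Among members above 1000 CPM in library 1, Atf3 had the widest gap in alveolar fibroblasts, with 1795 CPM in alveolar fibroblasts of library 1 and 533.9 in library 2, a ratio of 0.298. Its interval lay below 1 in all 5 groups, as did those of Fosb, Jund and Atf4, and its ratio was 0.182 in endothelial and 0.759 in immune cells. Fos had a ratio of 0.495 in alveolar fibroblasts and of 1.96 in immune cells. Socs3 (0.384), Ppp1r15a (0.361) and Gadd45g (0.296), a growth arrest and DNA damage gene, were also far lower in alveolar fibroblasts of library 2. Going the other way in both fibroblast groups were Btg2, Klf6, Dusp1, Dusp6, Nr4a3, Rhob and Ccn2, with ratios in alveolar fibroblasts of 2.19 for Nr4a3, 1.92 for Klf6, 1.88 for Ccn2 and 1.73 for Rhob. Ccn2 alone had an interval above 1 in all 5 groups, on 1, 12 and 0 UMIs in the endothelial, epithelial and immune sums of library 1, while Klf6 and Dusp6 had ratios above 1 in all 5. Klf2 was lower in library 2 in fibroblasts (0.767 in the alveolar group) and higher in endothelial (1.71) and immune cells (2.26). The differences in depth and mitochondrial share between the libraries ran alongside, and their part was not tested. The immune group was not divided into cell types, and its check markers differed between the libraries in both directions. Tyrobp stood at 3433 CPM in library 1 and 1517 in library 2, and Lcp1 at 451.5 and 543.3. The part of the mix of immune cells in the immune ratios was not tested.

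**Figure D5:**
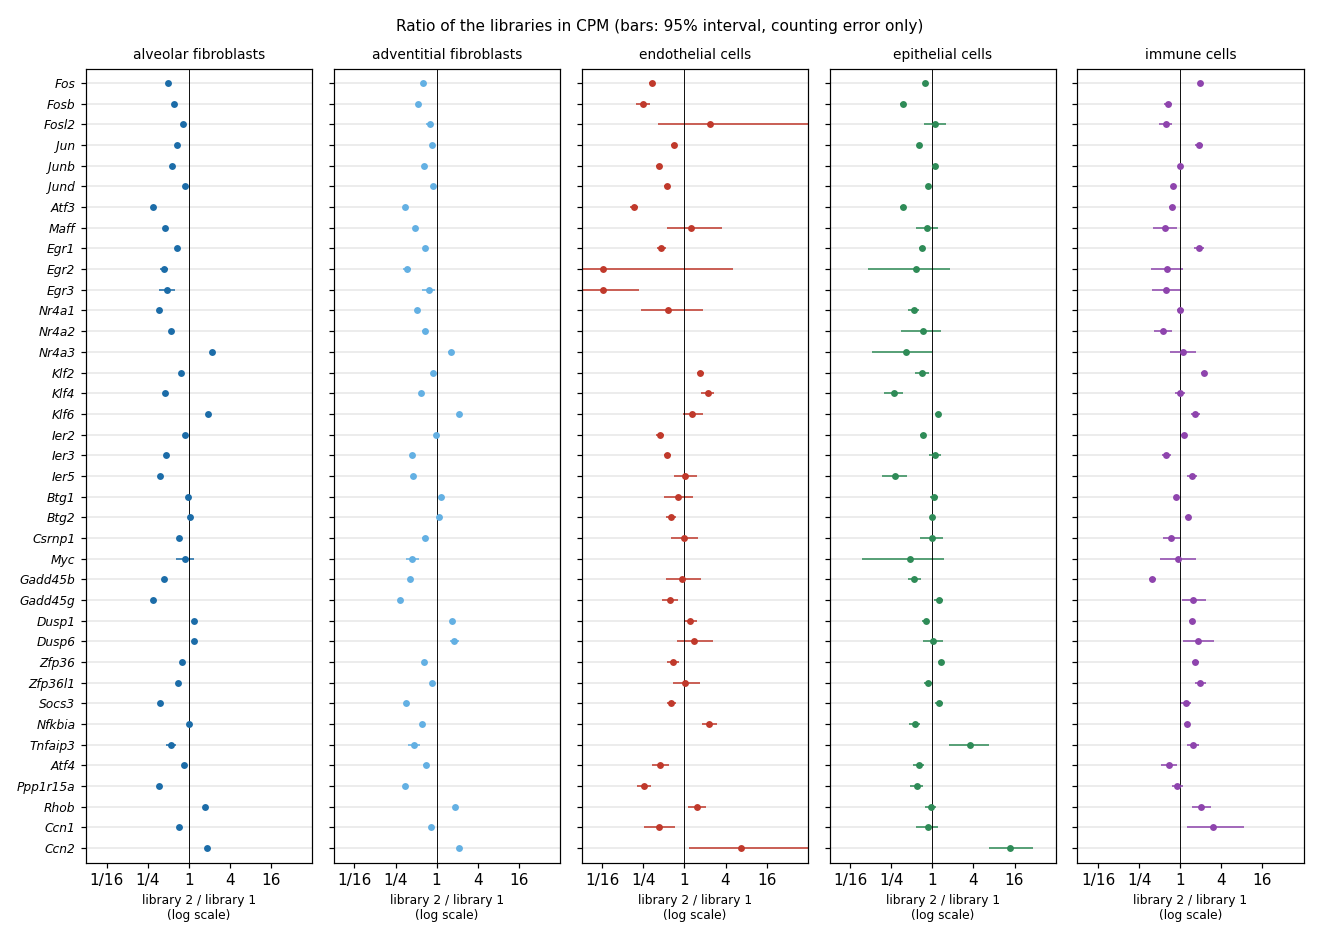
Ratio of CPM in library 2 to library 1 for each member (log axis) in the 5 groups (panels), with 95% intervals for counting error only, cut at the axis limits where wider. Most points lie left of 1 in both fibroblast panels (28 and 29 members with the interval below 1), and 19 lie right of it in the immune panel, while genes at 0 in a library are not drawn.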

How the data were processed

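The authors sorted ultraviolet-positive lung cells and made 3' single-cell libraries. The deposited matrices hold raw UMI counts per gene and barcode (Cell Ranger 5.0.1, mm10, per the submitters' processing notes), 48762735 UMIs in library 1 and 93970185 in library 2. Barcodes were kept if they had 200 genes or more and a mitochondrial share of 10% or less. A class needed at least 3 UMIs over its 3 markers, and the 2060 barcodes that passed for 2 or more classes were left out in place of a doublet caller. Stromal barcodes with 1 or 2 Dcn UMIs (823 and 895) joined no group. Counts were summed per library and group and tested with edgeR 4.0.16 (R 4.3.3; TMM, filterByExpr, quasi-likelihood, two-sided, called at an adjusted p under 0.05; 4 residual degrees of freedom), with the library as a block because the groups came from the same 2 libraries. Over 13326 genes the differences between libraries correlated between each pair of groups with r from 0.114 to 0.780. The block takes out the shift that a library shares over its groups. The p-values therefore measure only how far the differences between groups disagree between these 2 libraries. That spread is pooled over the 5 groups and drawn toward that of all genes (13.2 prior degrees of freedom). No label says that the libraries came from separate animals. DESeq2 1.42.0, other scalings, thresholds and left-out sums were alternatives. Cells were thinned to 2000 UMIs with a fixed seed for values per cell (Python 3.11.15). Intervals and floors (3 UMIs) cover counting error only. The edgeR step was tested on simulated data. Members and lists were chosen with earlier results of these data known. All 38 members could be named, and from each other list up to 4 called genes per comparison with the largest fold change at 10 CPM or more, and the 10 genes most correlated with the members, of which 1 is not reported here.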

Additional observations from a re-analysis of the deposited data

How the results depend on the processing

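With the library block removed, the members called fell to 1 in adventitial, 16 in endothelial, 16 in epithelial and 16 in immune cells, and DESeq2 called 4 in adventitial fibroblasts. Leaving out 1 sum at a time, an alternative chosen after seeing the data, gave 6 to 9, 15 to 25, 19 to 27 and 21 to 25 calls, and no call kept in such a fit turned direction. The lowest counts came without adventitial library 1 (6; Fosl2, Egr2, Maff and Tnfaip3 were lost) and without endothelial library 2 (15). Without Fos, Jun and Junb the summed share was 2.05% in alveolar and 2.07% in adventitial fibroblasts, 2.24% in endothelial, 0.648% in epithelial and 1.30% in immune cells. The variation between alveolar cells was then 0.547, and 0.623 with cells thinned to 1000 UMIs. In single libraries the shares ranged from 2.81 to 3.98%, 2.86 to 3.77%, 2.54 to 3.87%, 0.889 to 1.18% and 1.58 to 1.81% in the same order, and the coefficients of variation from 0.594 to 0.602, 0.459 to 0.489, 0.477 to 0.680, 0.458 to 0.510 and 0.625 to 0.697.

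Of 1216 fold changes of members under fitted alternatives, 1077 kept direction and side of the threshold, 69 lost the call, 40 gained one and 30 small uncalled values changed sign. Of 304 log2 ratios taken in 1 library alone, 146 lay further from the fitted value than the spread between the libraries. In adventitial fibroblasts, log2 values became 0.034 for Btg1 with both RLE and DESeq2, 0.040 for Klf6 with both (0.001 without the block), and for Zfp36 0.040, 0.041 and 0.009. In endothelial cells, RLE, library totals, DESeq2 and no block gave 0.065, 0.295, 0.077 and 0.082 for Atf3 (0.002 with at least 5 marker UMIs) and 0.021, 0.248, 0.027 and 0.002 for Ier2, while Jund was 0.089 with library totals and Tnfaip3 -0.062 with DESeq2. In epithelial cells, library totals gave -0.447 for Klf4, -0.230 for Klf6 and -0.143 for Gadd45g, and DESeq2 0.069 for Tnfaip3. In immune cells, RLE and DESeq2 gave 0.116 and 0.116 for Ier3, 0.036 and 0.036 for Klf6 and 0.011 and 0.010 for Ppp1r15a, library totals -0.131 for Gadd45b, and the libraries alone -0.370 (library 1) and 1.07 (library 2) for Nr4a1. The cause of these shifts was not tested.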

Other observations

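Glucocorticoid-induced genes, a list beside the 38, differed between the libraries in most groups. These genes were chosen after their values were seen. In alveolar fibroblasts Fkbp5, a co-chaperone of the glucocorticoid receptor, stood at 3.71 CPM (UMIs per 1000000) in library 1 and 159.1 in library 2, Zbtb16 at 10.1 and 285.8, Tsc22d3 (GILZ) at 173.8 and 956.1, and Errfi1 at 162.5 and 754.0. Of 7 genes on the list, 6 were higher in library 2 in alveolar and in adventitial fibroblasts, in endothelial and in epithelial cells, and 3 in immune cells, with a median ratio of 4.62 in alveolar fibroblasts and 0.932 in immune cells. Cebpd was the exception in alveolar fibroblasts, with 2701 and 2559. With 1 library per occasion, the occasion and any other difference between the libraries cannot be told apart.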
